A study of Mus musculus with 80 samples.

Results

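TET TKO cells are mouse embryonic stem cells (ESCs) that lack Tet1, Tet2 and Tet3, and their loss of DNA methylation was followed from serum to 168 h of 2i. The regions described are autosomal tiles of 500 bp. A tile was kept when it had 20 or more methylation calls and 3 or more cytosine positions in each of the 2 serum and 2 168 h libraries of TET TKO. This held for 57378 of the 224122 tiles with a position in all 4 libraries, and for that many of the 582615 tiles with a position in any of them. The rule used coverage alone and not the methylation values.

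The 4 libraries belong to a series of 80 samples on the passage of ESCs from serum to 2i, which addresses the route of methylation loss in 2i and the proteins that maintain or remove the mark. TET TKO (genotype TET1/2/3-/-) and TET WT share the background strain C57/129/FVB, and both lines were measured by reduced representation bisulfite sequencing (RRBS) in serum and after 48, 96 and 168 h in 2i. Every TET TKO group had 2 libraries, as did TET WT except at 168 h, where there was 1. E14, a wild-type ESC line of other origin, was measured in the same way in serum and at 168 h, with 2 libraries each. Serum medium held fetal calf serum and LIF, while 2i was N2B27 with LIF, the MEK inhibitor PD0325901 and the GSK3 inhibitor CHIR99021, so the 2 media differ in serum as well as in the inhibitors. The deletion is constitutive, so the serum cells carried it too, and whether the line is 1 clone is not stated. No RNA was measured in the TET lines, so neither the deletion nor the ESC identity was checked here by expression. Nothing in the labels says that replicates are separate cultures, so the spread between libraries may be technical. Tests of single tiles took most of their spread from other tiles. Tests over the TET TKO libraries of 2i joined values of successive times that share the same serum libraries, so these values are not independent.

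As background, TET proteins oxidise 5-methylcytosine to 5-hydroxymethylcytosine and on to further forms that can be removed by repair or are copied poorly at replication. Methylation is otherwise carried through replication by UHRF1, which recognises half-methylated DNA, and the methyltransferase DNMT1 that it brings there. Where this upkeep is lowered, methylation is diluted with each round of replication even without TET. In 2i, ESCs are known to lose methylation over most of the genome. Bisulfite reads 5-methylcytosine and 5-hydroxymethylcytosine alike, and cells without TET are known to make no 5-hydroxymethylcytosine, so a level in TET TKO is one of 5-methylcytosine whereas a level in the other lines holds both.

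Library depth was uneven. The serum libraries held 11046802 and 8386064 calls and the 168 h libraries 43706248 and 10189472, and the median tile had 74, 57, 286 and 68 calls. Calls of 1 read and PCR copies are not independent, so depth sets a limit on counting error only. Methylated calls on the mitochondrial genome, which is expected to be unmethylated and so gives an upper bound on failed conversion, made up 0.303% to 0.649% in the 8 TET TKO libraries. The data hold coordinates of the build NCBIM37, for which no annotation was used here, so tiles are given by position and not by gene.

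Tiles in TET TKO fell from a mean methylation level of 36.6% and 36.7% in the 2 serum libraries to 20.7% and 20.6% at 168 h. Both 168 h libraries lay below both serum libraries, and the spread within a pair was far smaller than the step between them. The fall of 16.0 percentage points (SD within groups 0.0983, 2 libraries each) left 56.4% ± 0.24 (SD, n = 2) of the serum level. An exact two-sided permutation test of 2 against 2 gave p = 0.333, the smallest this design allows. Of all tiles, 65.7% were lower in both 168 h libraries than in both serum libraries and 3.00% were higher in both, where the test of single tiles given further on called 39.4% lower. Single tiles differed on average by 4.47 points between the serum libraries and by 4.28 points between those of 168 h.

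In serum the tiles formed a low and a high group. Of the 57378 tiles, 30270 (52.8%) had under 20% methylation, while 7726 had 80% to 90% and 7247 had 90% or more. The high group was nearly emptied by 168 h. Tiles at 80% or more made up 25.9% and 25.8% of the tiles in the serum libraries, but 0.444% and 0.962% at 168 h. Of the 14973 tiles with 80% or more in serum, 61.2% and 51.2% lay between 40% and 60% in the 2 libraries of 168 h, and 0.0468% and 0.668% lay under 20%. These highly methylated tiles thus moved to intermediate levels and seldom under 20%. Over all tiles, the share under 20% went from 52.7% in both serum libraries to 59.3% and 59.9% at 168 h.

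**Figure D1:**
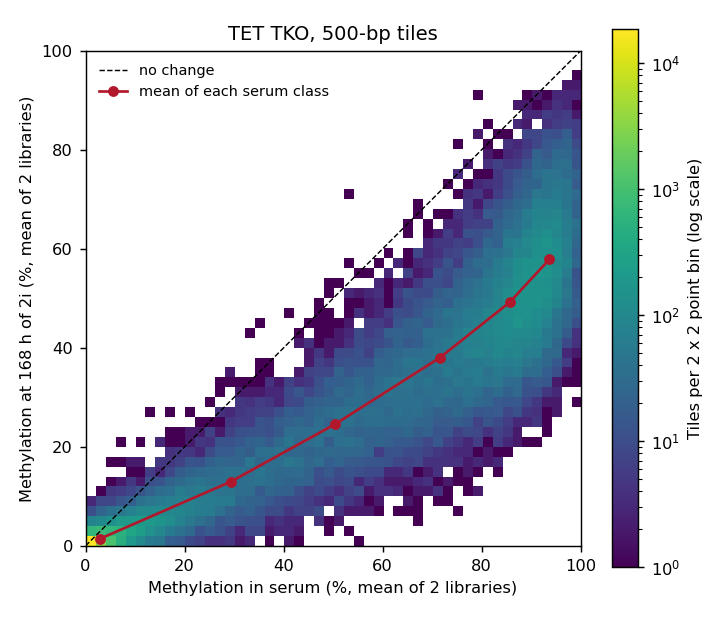
Methylation of 57378 tiles in TET TKO in serum (x axis, %) and at 168 h of 2i (y axis, %), each the mean of 2 libraries, coloured by the number of tiles per bin on a log scale. The red points are the means of 6 serum classes, which run from 1.49% to 57.9% at 168 h, and nearly all methylated tiles lie below the dashed line of no change.

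From 20% upward, the share kept rose with the level in serum. Tiles of 20% to 40% in serum went from 29.4% to 13.0% and kept 44.2% ± 0.785 of their level (SD, n = 2). Tiles of 40% to 60% kept 48.8% ± 0.534, those of 60% to 80% kept 53.1% ± 0.773, and those of 80% to 90% kept 57.4% ± 0.943. At 90% or more in serum, the level went from 93.7% to 57.9% and 61.8% ± 0.837 was kept. Neighbouring classes differed by more than this spread, though the classes were set on the same serum libraries that the share is taken from. In points, the median change grew from -16.3 in tiles of 20% to 40% to -37.0 in tiles of 80% to 90%, and was -36.0 above. Tiles under 20% were at 2.96% and 3.06% in the serum libraries and at 1.24% and 1.73% at 168 h. They kept 49.3% ± 11.3 (SD, n = 2), which was not below the classes of 20% to 60% and had a much wider spread. The mitochondrial values of these 4 libraries were 0.649%, 0.586%, 0.303% and 0.567%, so the higher level went with the higher mitochondrial value at 168 h and with the lower one in serum, and the part of incomplete conversion in the low tiles was not tested.

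Of the 57378 tiles, 22628 (39.4%) were called lower at 168 h, with a Benjamini-Hochberg adjusted p under 0.05 in a quasi-binomial model of the calls and a fall of 20 points or more. Tiles that began under 20% could not pass the 20 points. Of tiles at 20% to 40% in serum, 26.8% were called, rising to 76.4% at 40% to 60%, 91.5% at 60% to 80%, 94.1% at 80% to 90% and 92.5% at 90% or more. The mean change and these calls rest on the coverage rule, because methylated tiles were the shallower ones. Tiles with 20 to 24 calls in their shallowest library (8043) had a mean of 65.1% in serum and kept 56.5%, those just outside the rule with 15 to 19 calls (9423) had 67.7% and kept 56.7%, and the 18250 tiles with 100 or more calls had 4.35% and kept 53.8%. With 10 calls asked of each tile, 35800 of 76475 tiles were called lower, and with 50 calls, 4382 of 29550.

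No tile was called higher at 168 h (0.0% of 57378), and 0 tiles rose by 20 points whatever their p. With the quasi-binomial model, 84 tiles were higher at an unadjusted p under 0.05, and limma on log2 ratios called 0. When the 168 h library with most calls (replicate 1) was left out, 4 tiles were called higher. Without a minimum difference, 25 tiles passed the adjusted p of the quasi-binomial model. These were unmethylated tiles, at 0.0% to 1.05% in serum, with a median rise of 0.934 points and a largest rise of 7.36 points.

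The largest called falls among tiles with 40 or more calls in each library show the loss in single regions. The tile chr14:61513501-61514000 had 98.8% and 96.8% methylation in the serum libraries and 35.0% and 32.1% at 168 h. Over the pooled calls it fell by 63.6 points (adjusted p = 2.7e-11, quasi-binomial model). At chr14:63596501-63597000 the serum libraries had 88.4% and 83.3% and those of 168 h 22.3% and 25.5%. In both tiles the 168 h libraries lay over 50 points below the serum libraries, and the replicates were within 6 points of each other. The tile chr4:155505001-155505500 went from 87.0% and 95% to 30.1% and 20.4%, and chr5:125674001-125674500 from 80.8% and 77.8% to 18.5% and 13.5%. At chr10:62941501-62942000, 94.2% and 92.5% became 30.9% and 36.4%, and at chr9:30806001-30806500, 92.2% and 75.6% became 21.5% and 27.7%. At 168 h only the chr5:125674001 tile was under 20% in both libraries, and the other 5 lay between 20.4% and 36.4%.

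At other times and in other lines these 6 tiles behaved unevenly. The chr14:61513501 tile was at 80.9% and 63.4% at 48 h and at 56.1% and 46.9% at 96 h in TET TKO, so that it fell between each pair of times. In TET WT it began lower, at 75.9% and 80.8%, and the single 168 h library had no methylated call in 105 calls. The chr10:62941501 tile, in contrast, had 65.3% and 75% in TET WT serum and 49.2% in the TET WT library of 168 h. In E14 the chr14:61513501 tile went from 90.5% and 88.3% to 13.0% and 9.8%. The same tile therefore ended lower in both lines with TET than in TET TKO, and the chr10:62941501 tile ended higher. The chr14:63596501, chr5:125674001 and chr9:30806001 tiles also ended lower, at 1.6%, 3.7% and 3.2% in TET WT and at most 15.5% in E14. Their TET WT serum levels were at most 50%. The chr4:155505001 tile ended higher, at 36.8% in TET WT and 48.1% and 38.7% in E14.

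The other end of the range held tiles that kept their methylation. Among 24060 tiles with 40% or more in the pooled serum calls, the median tile kept 56.8%, and the 5th and 95th percentiles were 35.7% and 78.7%. At 168 h, 988 tiles (4.11%) kept 80% or more of their serum level and 121 (0.503%) kept under 20%. This count is a description and moves with the rule. It was 560 when each 168 h library alone had to hold 80% of the serum level, 144 at 90% or more, and 168 of 4589 (3.66%) among tiles with 50 calls in each library.

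The 6 tiles with the highest levels at 168 h were ranked by the lower of their 2 libraries. They came from tiles with 80% or more in both serum libraries and 40 or more calls in each library. Over the pooled calls they fell by 2.41 to 10.5 points. At chr5:96726001-96726500 serum had 98.1% and 86.7% and 168 h had 88.4% and 92.5%, so the groups overlapped. At chr4:5534501-5535000 the values were 100% and 97.1% in serum and 87.7% and 95.1% at 168 h, and at chr8:29321001-29321500 they were 93.8% and 97.9% against 87.0% and 96.3%. In the first tile the 6 TET TKO libraries of 2i stayed between 88.4% and 95%. The tile chr10:96791501-96792000 had 97.3% and 91.8% in serum and 86.3% and 91.1% at 168 h, and chr14:92439501-92440000 had 87.7% and 90.5% against 86.1% and 87.4%. The last of the 6, chr18:42343001-42343500, had 95.8% and 97.1% against 84.6% and 92.2%. In the TET WT library of 168 h the 6 tiles had from 70.8% to 90.5%, lowest in chr14:92439501 and in chr5:96726001 (72.5%). In E14 at 168 h, chr14:92439501 had 68.2% and 69.3%, and the other 5 had from 85.9% to 95.7%.

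**Figure D2:**
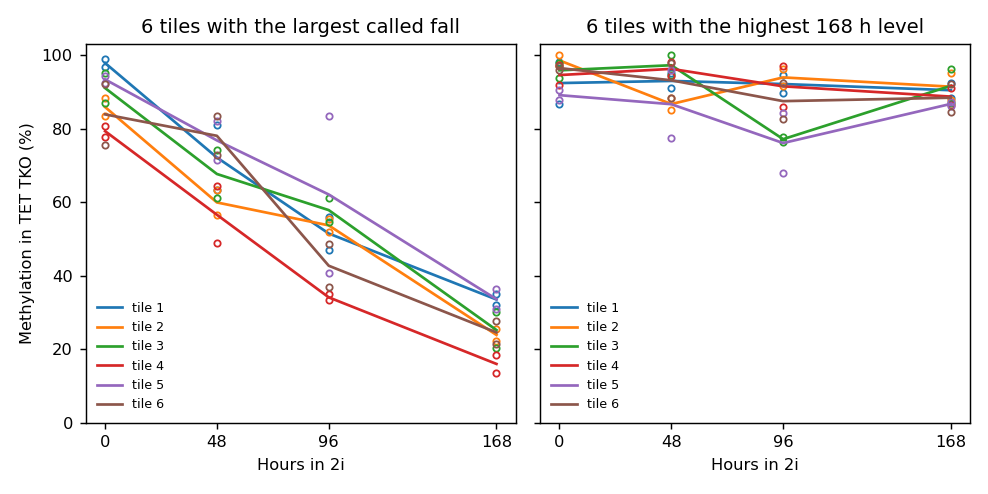
Methylation in TET TKO (y axis, %) against hours in 2i (x axis, serum drawn at the left end) for 2 sets of tiles. These are the 6 tiles with the largest called fall and the 6 with the highest 168 h level in the lower library. Circles are libraries and lines join the means of 2: the falling tiles end between 13.5% and 36.4%, and the others between 84.6% and 96.3%.

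Tiles kept in TET TKO were followed in libraries that did not choose them. In TET WT, 382 of the 988 tiles were covered in all TET libraries with 40% or more in serum in both lines. They kept 89.96% ± 0.149 (SD, n = 2) of the TET WT serum level at 96 h and 79.4% at 168 h (1 library), against 73.1% ± 0.275 and 48.5% in the 7828 other tiles. In E14, 785 of the tiles were covered and had 40% or more in serum there too, and they kept 78.0% ± 0.638 at 168 h against 47.9% ± 0.366 (n = 2 each) in 18408 others. The kept tiles began higher in serum, at 80.5% against 68.2% in TET WT and 85.5% against 77.0% in E14. In TET TKO itself they stood at 96.3% of serum at 48 h and 86.8% at 96 h, against 89.9% and 69.2% for the others, though these values share the serum libraries that chose them. Kept tiles had 6.13 covered CpGs on average and others 6.996.

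The time course in TET TKO was read in 39963 of the tiles, those that passed the rule in all 8 libraries. At 48 h, 0 tiles were called lower than in serum by the quasi-binomial model (0.0%), with 3511 lower at an unadjusted p under 0.05, 633 of them by 20 points or more. limma called 0 at 48 h and had 3563 lower at an unadjusted p under 0.05. At 96 h, 6523 tiles (16.3%) were called lower, and at 168 h 10646 (26.6%) in the same fit. The 96 h count was 3442 without TKO 96 h replicate 1 and 3706 without TKO serum replicate 1, and limma called 0. Of the tiles called at 96 h, 6421 were also called at 168 h, which is 98.4% of the first list and 60.3% of the second, with the serum libraries shared. Between 96 and 168 h, 156 tiles (0.39%) were called lower, but this was 13 without TKO 96 h replicate 1, 17 without TKO 168 h replicate 1, 1 with the dispersion prior taken from all tiles and 0 with limma.

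Most of the loss without TET had taken place by 96 h. In the 39358 tiles covered in all 15 TET libraries, TET TKO had 24.9% and 24.97% in serum and 22.3% in both libraries at 48 h. It had 17.3% and 17.0% at 96 h and 14.04% and 14.06% at 168 h. The libraries of neighbouring times did not overlap. After 48 h, 89.5% ± 0.0245 (SD, n = 2) of the serum level was kept, after 96 h 68.7% ± 0.911, and after 168 h 56.4% ± 0.0545. The same order held in each serum class from 20% upward. Tiles of 90% or more kept 88.8%, 72.1% and 62.9% at the 3 times, and tiles of 20% to 40% kept 91.0%, 63.99% and 44.4%. The classes therefore lay within 3 points of each other at 48 h and had spread over 18 points by 168 h.

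Pace was compared with TET WT in 8210 tiles that had 40% or more in serum in both lines. Per 24 h, TET TKO lost 4.92% of what remained between serum and 48 h, with 4.85% to 4.99% over the 4 pairings of libraries. This rose to 11.3% (10.8% to 11.7%) between 48 and 96 h and came down to 5.58% (4.95% to 6.21%) between 96 and 168 h. TET WT lost 1.94% (1.89% to 1.98%), then 12.3% (12.1% to 12.4%) and then 12.2% (12.1% to 12.2%, 2 pairings) per 24 h. In the mean of these 8210 tiles TET TKO was thus the faster up to 48 h, by ranges that did not overlap, and had the lower value after 96 h. Not every class held the first order. In 355 tiles at 40% to 60% in TET TKO serum and 40% or more in TET WT, which began at 53.0% and 49.1%, TET TKO kept 95.6% at 48 h and TET WT 93.2%. In 692 tiles at 60% to 80% in TET TKO and 60% or more in TET WT, they kept 94.3% and 96.1%. TET WT had no replicate at 168 h, so its last range holds only the spread of its 96 h libraries. That range cannot show how far another TET WT library of 168 h would lie. The middle interval depended on the tiles: in those with 80% or more in both lines, TET TKO lost 9.04% (8.62% to 9.46%) and TET WT 8.47% (8.30% to 8.64%), so the order turned and the ranges overlapped. In these tiles the first interval gave 4.59% and 1.79% and the last 3.99% and 7.98%. The difference in pace was not tested. The 2 lines did not begin level, since the 8210 tiles had a serum mean of 84.2% in TET TKO and 68.8% in TET WT.

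Tiles that began at 80% or more in both lines (2116) narrow that gap, to 91.9% and 86.1%. TET TKO kept 91.0% ± 0.0466 of serum after 48 h, then 75.3% ± 0.949 and, by 168 h, 66.7% ± 0.837. TET WT kept 96.4% ± 0.175, 80.8% ± 0.289 (SD, n = 2) and 63.0% (1 library). The difference, TET TKO minus TET WT, was -5.41 points at the first of these times, -5.47 at the second and 3.70 at the last. Averaged over the 3 times it was -2.39 points, with p = 0.213 by exact two-sided permutation of genotype within each time (108 arrangements, smallest p = 0.00926; adjusted p = 0.213 over 5 tests of this kind). Over the tiles of 40% or more the average was 0.371 points and so of the opposite sign (exact permutation p = 0.926), and without 168 h it was -5.44 points, with p = 0.0556, the smallest that 36 arrangements allow. TET TKO and TET WT were each a single line, so permutations of genotype weigh the spread between libraries. Line and genotype cannot be told apart by them.

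**Figure D3:**
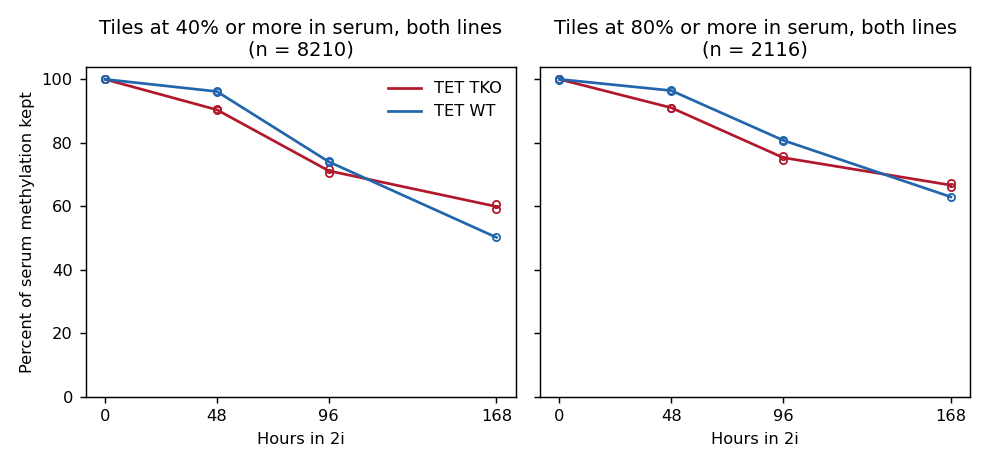
Percent of the serum methylation kept (y axis) against hours in 2i (x axis, serum at the left end) in TET TKO and TET WT, for tiles with 40% or more (left) and 80% or more (right) in serum in both lines. Circles are libraries and lines join means of 2, or the 1 library of TET WT at 168 h: TET TKO lies below TET WT at 48 and 96 h and above it at 168 h in both panels.

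Few single tiles were called different in loss between TET TKO and TET WT. The model recovered 68 of 200 changes in simulated data of this comparison (39358 tiles). There every library was set to the TET TKO serum level, and only TET TKO at 168 h was lowered. Tiles losing less in TET TKO, and any loss in TET WT, were not simulated. On the logit scale of the model, 3 of 39358 tiles (0.00762%) lost less in TET TKO than in TET WT from serum to 168 h and 4 (0.0102%) lost more, each with an adjusted p under 0.05 and a difference of 20 points or more. The choice of test matters. With the interaction tested in percentage points, by a normal in place of an F distribution, 259 (0.658%) lost less and 536 (1.36%) lost more. Scale and distribution changed together, and their parts were not tested apart. Leaving out single TET TKO libraries gave 1 to 6 tiles that lost less and 1 to 8 that lost more, and with the dispersion prior taken from all tiles 0 and 1. The single TET WT library of 168 h was assumed to vary like the others. Of tiles called lower in each line, 7532 were shared, which is 72.8% of the 10349 called in TET TKO (26.3% of all tiles) and 94.3% of the 7988 called in TET WT (20.3%).

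Among the 3 tiles that lost less, chr10:40530501-40531000 had 86.3% and 82.1% in TET TKO serum and 68.2% and 67.6% at 168 h. TET WT had 89.6% and 89.1% there in serum, 44.0% and 40.7% at 96 h and 22.4% at 168 h. The losses differed by 50.5 points (adjusted p = 0.0197, quasi-binomial model), and E14 went from 69.3% and 82.4% to 19.4% and 30%. In this tile TET TKO alone stayed above 60%. At chr1:92056501-92057000, TET TKO went from 70.3% and 66.7% to 44.4% and 41.5%, and TET WT from 53.4% and 50.7% to 3.6%. At chr6:136467001-136467500, TET TKO had 58.1% and 33.3% in serum and 40.1% and 41.3% at 168 h, so that its groups overlapped, while TET WT went from 41.3% and 29.5% to 2.1%.

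Among the 4 tiles that lost more in TET TKO, chr5:120744501-120745000 went from 86.4% and 92.9% to 33.3% and 26.8%, while TET WT had 54.0% and 57.5% in serum and 41.8% at 168 h. The losses differed by -43.9 points (adjusted p = 0.0342, quasi-binomial model). At chr2:138922501-138923000, TET TKO fell from 89.1% and 93.6% to 57.0% and 57.3%, and TET WT stood at 72.5% and 76.4% in serum and 71.4% at 168 h. The tile chr16:18397501-18398000 had 100% in both TET TKO serum libraries and 61.3% and 37.0% at 168 h, with 73.8% and 74.1% and then 60.9% in TET WT. The 4th, chr13:120277001-120277500, was read at 1735 to 9038 calls in these TET TKO libraries, with 75.5% and 73.0% in serum and 49.8% and 48.0% at 168 h. The median tile held 57 to 286 calls in them, and whether this tile is a repeat was not tested. TET WT stayed between 56.6% and 63.0% in that tile in every library, and E14 had at most 2.4% (339 to 927 calls).

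Against E14 the differences went mostly one way. In 52914 tiles covered in both lines, 182 (0.344%) lost less in TET TKO than in E14 and 3 (0.00567%) lost more. In percentage points, again by a normal distribution, the counts were 1263 (2.39%) and 219 (0.414%). The 182 was 44 without TKO serum replicate 1, 66 without TKO serum replicate 2 and 9 without TKO 168 h replicate 1, and with the dispersion prior taken from all tiles no tile was called in either direction. The 182 tiles went from a mean of 62.4% to 40.02% in TET TKO and from 64.7% to 10.2% in E14. In tiles with 80% or more in both lines (9786), TET TKO kept 62.0% and 60.7% in its 2 libraries and E14 kept 56.4% and 57.1%. Line and genotype cannot be told apart in this comparison either. The lists of tiles called lower in TET TKO and E14 shared 17950 tiles, 90.7% of the 19785 in TET TKO (37.4% of all tiles) and 91.5% of the 19616 in E14 (37.1%).

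The 4 tiles with the largest smaller loss than E14 began between 48.0% and 94.4% in the TET TKO serum libraries. At chr5:65073501-65074000, TET TKO had 62.1% and 75.8% in serum (29 and 33 calls) and 49.6% and 75% at 168 h (20 calls in the second), groups that overlapped. There E14 went from 86.1% and 92.5% to 13.5% and 9.8%. At chr10:22178001-22178500, 89.3% and 93.8% in TET TKO became 79.1% and 78.9%, and 92.9% and 93.6% in E14 became 25% and 23.9%. At chr13:60018001-60018500, TET TKO went from 94.4% and 66.7% (24 calls in the second) to 65.5% and 62.5%. The second serum library was thus close to 168 h. There E14 went from 84.7% and 80.7% to 1.5% and 4.3%. At chr10:18082001-18082500, TET TKO went from 48.0% and 48.1% to 38.8% and 35.1%, and E14 from 79.4% and 77.5% to 11.9% and 12.3%. TET WT at 168 h had 9.6%, 36.8%, 16.7% and 4.9% in these 4 tiles, each below both TET TKO libraries.

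The 3 tiles that lost more than in E14 were chr13:56483501-56484000, chr15:86054001-86054500 and chr5:123607001-123607500. The first went from 88.9% and 94.1% to 47.7% and 38.2% in TET TKO and from 46.2% and 49.0% to 32.4% and 35.8% in E14. In the second, TET TKO ended at 61.5% and 75% and E14 at 80.9% and 82.8%, and in the third TET TKO ended at 13.8% and 18.9% and E14 at 18.3% and 20.4%.

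Some tiles with high methylation in TET TKO serum had a low level in TET WT serum. To see whether these lost their methylation like others, tiles at 60% to 80% in TET TKO serum were divided by their level in TET WT serum. This comparison was added with the data in view. In 251 tiles under 20% in TET WT, TET TKO had 67.5% and 68.3% in serum, 43.3% and 41.3% at 96 h and 32.6% and 31.8% at 168 h. In 692 tiles at 60% or more in TET WT as well, TET TKO had 74.3% and 73.7% in serum, 54.5% and 54.0% at 96 h and 45.5% and 44.6% at 168 h. The tiles low in TET WT thus kept 47.4% ± 0.779 and the shared tiles 60.9% ± 0.921 (SD, n = 2).

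The difference in TET TKO between tiles low in TET WT and shared tiles was -5.98 points after 48 h and grew to -11.0 after 96 h and -13.5 after 168 h. It averaged -10.2 points over the 6 libraries of 2i and was negative in 6 of 6 (exact two-sided sign permutation p = 0.0312, the smallest possible, adjusted p = 0.0772 over 5 tests). It therefore failed the correction. The tiles were chosen on the serum libraries that the share is taken from, and the sets began apart, at 67.9% and 74.0%. With the class taken from serum replicate 1 of each line and the TET TKO serum level from replicate 2, the difference was -4.16 points and negative in 4 of 6 libraries (exact sign permutation p = 0.125), with 50.3% kept in 243 tiles and 59.0% in 765 at 168 h. The difference was thus smaller once the choice of tiles and the level were separated. Tiles at 40% to 60% in TET TKO serum, divided at 20% and 40% in TET WT, gave -10.7 points. The 2 sets differed in other ways too: tiles low in TET WT had 9.43 covered CpGs against 7.88, and 0.0% of them lay in the H3K9me2-rich decile of windows described next, against 7.92%. The part of these in the result was not tested. A lower share was kept in the lines with TET as well. TET WT kept 23.8% of its 14.4% in the 251 tiles and 55.0% of its 68.7% in the 692 tiles (1 library of 168 h). E14 was not low in most of the first set: in the 243 tiles it covered, it had 39.5% and 41.6% in serum and was under 20% in 23 tiles, and it kept 19.99% at 168 h, against 55.4% in 670 of the shared tiles.

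**Figure D4:**
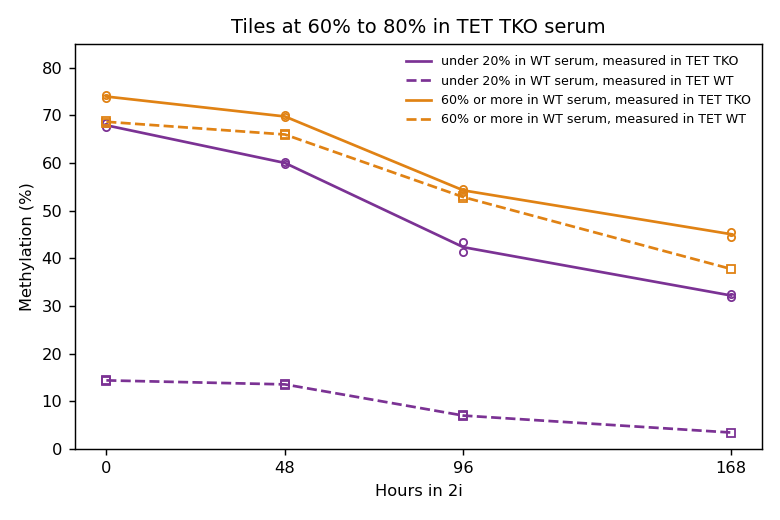
Methylation (y axis, %) against hours in 2i (x axis, serum at the left end) of tiles at 60% to 80% in TET TKO serum, for 251 tiles under 20% and 692 tiles at 60% or more in TET WT serum. Circles are TET TKO libraries and squares TET WT libraries, and lines join their means: in TET TKO the first set ends at 32.6% and 31.8% and the second at 45.5% and 44.6%.

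Chromatin was considered next. H3K9me2, dimethylated lysine 9 of histone H3, is a mark of repressed chromatin that UHRF1 is known to bind. It was measured in E14 and not in TET TKO, by ChIP followed by bisulfite sequencing, and 10-kb windows were ranked by bound over input calls in 2i (229957 windows with 20 or more input calls). The labels give no hours for these 2i samples, which the paper describes as long-term 2i, so the mark was not read at the times of the loss. Among tiles with 40% or more in TET TKO serum, the share kept at 168 h rose from 53.1% and 52.1% in the lowest decile of windows to 61.3% on average in the fifth, 64.4% in the eighth and 65.0% and 64.3% in the highest. From the seventh decile on, steps were within the difference between the 2 libraries. The serum level rose as well, from 76.6% to 83.6%.

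Over such tiles read in all TET TKO libraries, those in the highest decile of windows (442) kept 65.4% ± 0.499 at 168 h and the others (9335) kept 58.0% ± 0.995. The difference was 0.878 points after 48 h and 4.84 after 96 h, and reached 7.39 by 168 h. It averaged 4.37 points and was positive in 6 of 6 libraries (exact two-sided sign permutation p = 0.0312, adjusted p = 0.0772 over 5 tests). Within classes of the serum level, chosen with the data in view, it was 4.71 points. At 168 h alone, the 38 tiles of 40% to 60% in the highest decile kept 60.2% and the 1475 others 49.4%, and in tiles of 90% or more the 162 kept 67.4% and the 2621 others 63.1%. With windows ranked in serum in place of 2i, the difference was 1.67 points (exact sign permutation p = 0.125).

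By decile, the rise with H3K9me2 was flatter in TET TKO than in the lines with TET, though the tiles differed between lines. Against E14, in which the windows were ranked, the difference was not tested. From the lowest to the highest decile of windows, E14 went from 41.8% to 61.03% kept and TET WT from 43.3% to 61.4% in tiles of 40% or more in each line's own serum. TET TKO and the other lines were furthest apart in the lower deciles and closest in the eighth, with 64.4% against 61.9% in E14 and 61.8% in TET WT. In tiles with 40% or more in both TET lines, the excess of the highest decile (401 tiles) over the others (6879) at 168 h was 5.58 and 6.08 points in the TET TKO libraries and 11.7 points in the TET WT library. TET TKO minus TET WT was 0.114 points after 48 h, then -2.82, and -5.86 after 168 h. The average of -2.85 points had p = 0.0463 by exact two-sided permutation of genotype within times (108 arrangements) and an adjusted p = 0.0772 over 5 tests, which fails the correction. This comparison of lines was not in the first plan, and no alternative settings were run for it.

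**Figure D5:**
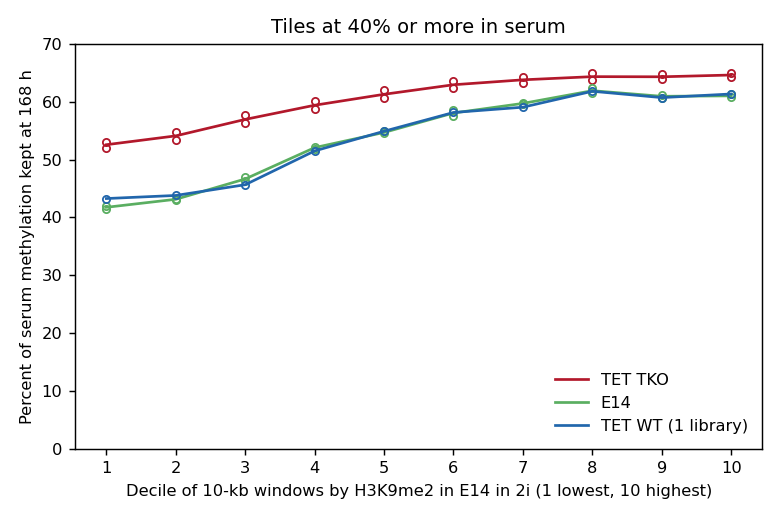
Percent of the serum methylation kept at 168 h (y axis) by decile of 10-kb windows ranked on H3K9me2 of E14 in 2i (x axis, lowest to highest) in tiles with 40% or more in the line's own serum. Circles are libraries and lines their means: TET TKO runs from 52.6% to 64.6% and lies above E14 (41.8% to 61.03%) and TET WT (43.3% to 61.4%) in every decile.

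CpG number made little difference. Tiles with 40% or more in TET TKO serum were divided in 4 classes by the CpGs covered in any TET library. The sparsest (1 to 5 CpGs, 3081 tiles) kept 59.1% ± 1.006 at 168 h and the densest (11 to 52 CpGs, 2535 tiles) 56.3% ± 0.626, with 57.9% and 57.5% between. The densest tiles began lower, at 72.4% against 81.3%. Over the 6 libraries the densest minus the sparsest averaged -1.04 points, positive in the 2 libraries of 48 h and negative in the others (exact two-sided sign permutation p = 0.188, adjusted p = 0.213 over 5 tests). Within classes of the serum level it was -0.0818 points.

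The share kept by single tiles was alike between replicates in part. Across the 24076 tiles with a mean of 40% or more in serum, the share kept from serum replicate 1 to 168 h replicate 1 had a Pearson's r of 0.518 with that from replicate 2 to replicate 2, and 0.621 over the 4592 tiles with 50 or more calls. These are descriptions across tiles, which are not independent. Between TET TKO and E14, the shares had r of 0.520 over 19193 tiles and 0.583 over 3867 tiles with 50 or more calls. Tiles near each other were more alike than distant ones, though weakly: r, with 1 tile of a pair read in each replicate, was 0.280 for 1542 pairs of adjoining tiles, 0.196 at 1 to 2 kb, 0.0781 at 5 to 10 kb and 0.0296 at 500 to 1000 kb.

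Along the genome, every autosome lost methylation to a like extent. Tiles with 40% or more in serum kept from 54.2% on chromosome 11 to 60.3% on chromosome 3. On the X chromosome, outside the autosomal rule, 176 such tiles went from 76.2% and 77.8% to 52.1% and 49.8% and kept 66.2%, above every autosome. In 829 windows of 1 Mb with 10 or more such tiles, the median window kept 55.9%, the 5th and 95th percentiles were 50.3% and 63.8%, and the 2 libraries of 168 h differed by 2.65 points on average. Across windows, the share kept had r of 0.572 with the mean log2 H3K9me2 of their tiles and 0.549 with the share kept in E14 (653 windows), again a description.

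The windows that kept most were chr4:146000001-147000000 (76.5% and 81.8% in the 2 libraries of 168 h), chr12:20000001-21000000 (74.6% and 74.5%), chr13:8000001-9000000 (72.3% and 71.8%) and chr4:61000001-62000000 (70.7% and 71.1%). E14 kept 73.8%, 81.0%, 63.97% and 71.7% in these, from 5 to 11 tiles each. Those that kept least were chr11:4000001-5000000 (45.0% and 41.7%), chr11:104000001-105000000 (49.8% and 43.6%), chr2:34000001-35000000 (50.9% and 43.9%) and chr19:43000001-44000000 (47.8% and 47.6%), where E14 kept 42.7%, 38.9%, 37.3% and 38.7%. E14, which had no part in the choice of windows, kept more in each of the first 4 than in any of the last 4. TET WT did not keep that order in every window, with 54.3% in chr13:8000001 (7 tiles) and 57.7% in chr11:104000001 (2 tiles). Each window rests on 10 to 20 tiles of TET TKO.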

How the data were processed

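The RRBS and ChIP-BS files deposited by the authors list each covered cytosine with its methylated share in percent and 2 read counts, of methylated and of unmethylated calls, as Bismark writes them on NCBIM37. The submitters' processing notes name Trim Galore 0.3.5 and Bismark 0.12.3, while the filters used are not given in the sources here. Calls were summed in tiles of 500 bp. The members, lists and rules were chosen with earlier results of these data known.

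Tiles were tested with a quasi-binomial logistic model, its dispersion being moderated with limma 3.58.1 (squeezeVar, R 4.3.3), and an F test. A call needed a Benjamini-Hochberg adjusted p under 0.05 and 20 points. The prior was estimated on tiles with 5 or more expected methylated and unmethylated calls in every library, in place of all tiles, because of simulated data with 200 changed tiles. There it recovered 147 for 168 h against serum (57378 tiles) and 62 for the difference from E14 (52914 tiles), and the all-tile prior 0 and 0. In these simulations only TET TKO at 168 h was lowered and all other tiles stayed unchanged. In the real calls 39.4% of tiles were called lower, so recovery there need not carry over. With the real calls the all-tile prior called 21564 tiles lower at 168 h but none for the difference from E14. This departs from the first plan, which is kept as an alternative. The prior had 33.8 degrees of freedom for 2 residual ones, so a tile's own spread had little weight. Retention is the mean level of a set of tiles over its mean in serum, which was treated as fixed. Single-value comparisons used exact permutation over libraries. Positions of over 20 calls were left out of ChIP-BS, to remove repeats.

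Named tiles were the 6 largest called falls and the 6 highest 168 h levels (40 or more calls in each library, 80% or more in both serum libraries for the latter), and up to 4 of the largest called differences of loss in each direction. The 168 h levels were ranked by the lower of the 2 libraries. Tiles with more than 1 position of over 1000 calls were not named. Named windows were the 4 that kept most and least. Lists that needed gene annotation were not used.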

Additional observations from a re-analysis of the deposited data

Results flagged for a closer look

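The loss from serum to 168 h was tested for a difference between TET TKO and the lines with TET, and the differences whose test had an adjusted p under 0.05, and 1 that passed before correction only, are gathered here as values. Against TET WT, 3 tiles lost less in TET TKO, by 50.5, 26.6 and 23.5 points (chr10:40530501, chr6:136467001 and chr1:92056501), and 4 lost more, by a difference of -43.9, -30.9, -30.2 and -21.7 points (chr5:120744501, chr2:138922501, chr16:18397501 and chr13:120277001). Against E14, 182 tiles lost less, the widest by 60.9, 57.2, 56.5 and 56.1 points (chr5:65073501, chr10:22178001, chr13:60018001 and chr10:18082001), and 3 lost more, by a difference of -32.1, -28.8 and -28.6 points (chr13:56483501, chr15:86054001 and chr5:123607001). Tiles losing less and more were 0.00762% and 0.0102% of 39358 tested against TET WT, and 0.344% and 0.00567% of 52914 against E14. With the dispersion prior taken from all tiles, 0 tiles were called against E14 in either direction. The excess kept in H3K9me2-rich windows was smaller in TET TKO than in TET WT by a mean difference of -2.85 points over 3 times (exact permutation p = 0.0463), which did not pass after correction (adjusted p = 0.0772 over 5 tests). That comparison was not in the first plan and had no alternative settings.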

How the results depend on the processing

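Of 114 alternative values for 15 results, 64 left the result as it was, meaning the same sign and the same verdict of the test, a count within 1.5 times, or a mean change within 1 SD. The mean change was -19.4 points with 10 calls per tile, -6.58 with 50 and -9.24 over single positions with 5 or more calls, against -16.1 to -15.9 with single libraries left out. Tiles called lower at 168 h numbered 35800 and 4382 with 10 and 50 calls, 10349 in the fit of all 15 TET libraries (39358 tiles tested) and 19820 to 22509 with single libraries left out. Tiles called higher numbered 25 with no minimum difference, and 0 to 4 with single libraries left out.

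At 48 h the replicate block gave 8 lower tiles and no minimum difference gave 1. At 96 h limma gave 0, and leaving out single libraries gave 3442 to 5680. From 96 to 168 h the count was 278 with the replicate block, 301 with no minimum, 0 with limma, 1 with the dispersion prior from all tiles and 13 to 163 with single libraries left out. Against TET WT, tiles losing more numbered 536 on the percent scale, 15 with no minimum, 1 with the all-tile prior and 1 to 8 with single libraries left out. Tiles losing less numbered 259, 5, 0 and 1 to 6. Against E14, tiles losing more numbered 219, 9, 0 and 0 to 3, and 6 with the replicate block. Tiles losing less numbered 1263, 472, 0 and 9 to 127. Only TET TKO libraries were left out in these comparisons of lines. The cause was not tested. The all-tile prior gave 21564 lower tiles at 168 h and 5219 at 96 h, near the counts reported, but left almost no difference of loss between lines.

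Retention against TET WT changed sign, to 0.371, with a start of 40%. The H3K9me2 difference was 1.67 with windows ranked in serum, and that between tiles low in TET WT and shared tiles was -4.16 with the class and the level from different serum replicates. Kept tiles numbered 144, 168 and 560 under the stricter rules. Replicate numbers did not pair the libraries: deviations of same-numbered serum and 168 h libraries had r = -0.00319 over 11273 tiles, and the replicate block left the mean change at -16.0 and gave 22532 lower tiles at 168 h. Depth limits single tiles, since methylated tiles held the fewest calls.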
